A study of Mus musculus with 16 samples.

Results

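CC chemokine ligands are small secreted proteins that attract leukocytes. The 10 members described here, Ccl2, Ccl3, Ccl4, Ccl5, Ccl6, Ccl7, Ccl9, Ccl12, Ccl17 and Ccl24, were chosen by gene symbol from a table of 20200 genes counted in 16 libraries of myeloid cells from the healing knee of the mouse. The cells came from the interface tissue between tendon graft and bone after anterior cruciate ligament reconstruction (ACLR), an operation that drills bone tunnels and pulls a tendon graft through them. All libraries were from operated wild-type C57BL/6 mice, 12 weeks old according to the methods, and no unoperated tissue was among them. Sorted cells of 5 to 7 mice were pooled for each library, so the spread between libraries is the spread between pools, and each group had 2 libraries. The number of mice in the study implies that the populations of a day were sorted from shared pools, whereas the tests treat the libraries as separate.

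The 8 groups were 4 sorted populations on day 1 and on day 14 after surgery. CD9+ macrophages were live CD45+ CD11b+ cells that lacked Ly6G and lineage markers and carried F4/80 and CD9. CX3CR1+ macrophages passed the same gate but carried F4/80 and CX3CR1 without CD9, and the rare cells with both CD9 and CX3CR1 fell into the CD9+ sort. F4/80- myeloid cells lacked F4/80 and Ly6G, and neutrophils carried Ly6G and Ly6C. A gate is a range of staining and not a lineage, so each population could hold several cell types.

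Chemokines guide cells by binding receptors on their surface. Ccl2, Ccl7 and Ccl12 act on CCR2 and draw monocytes out of the bone marrow and into inflamed tissue. Ccl3 and Ccl5 act on CCR1, which neutrophils, monocytes and macrophages carry, and Ccl4 attracts monocytes and lymphocytes. Ccl6 and Ccl9 are ligands of CCR1 that resting and mature myeloid cells make in quantity, Ccl24 attracts eosinophils through CCR3, and Ccl17 attracts T cells through CCR4. Macrophages and neutrophils both make several of these proteins, and the inducible members are classical products of early inflammation.

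The members were named for a pair of adjacent cysteines, and the stretch that codes for this pair is shown because it is the feature all 10 share. It is printed for 9 of the 10 members. Each line gives 30 coding bases, 5′ to 3′ on the gene's strand, from the Gencode transcripts of GRCm38 (mm10), with the codons of the cysteine pair in capitals.
Ccl2: gccccactcaccTGCTGCtactcattcacc
Ccl7: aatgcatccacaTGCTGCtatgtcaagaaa
Ccl12: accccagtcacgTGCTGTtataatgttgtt
Ccl4: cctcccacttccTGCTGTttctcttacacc
Ccl5: gacaccactcccTGCTGCtttgcctacctc
Ccl6: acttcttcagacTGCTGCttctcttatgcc
Ccl9: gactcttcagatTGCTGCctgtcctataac
Ccl24: atcccctcatctTGCTGCacgtcctttatt
Ccl17: gtaggccgagagTGCTGCctggattacttc
These windows were at chr11:82036494-82036523 for Ccl2 (plus strand), chr11:82046526-82046555 for Ccl7 (plus strand), chr11:82102622-82102651 for Ccl12 (plus strand), chr11:83663470-83663499 for Ccl4 (plus strand), chr11:83529230-83529259 for Ccl5 (minus strand), chr11:83589374-83589403 for Ccl6 (minus strand), chr11:83575914-83575943 for Ccl9 (minus strand), chr5:135572653-135572682 for Ccl24 (minus strand), chr8:94811200-94811229 for Ccl17 (plus strand). Each lay within a single coding exon, exon 2 of 3 in most members and exon 3 of 4 in Ccl6 and Ccl9. The first cysteine was codon 33 or 34 in Ccl2, Ccl4, Ccl5, Ccl7, Ccl12 and Ccl24, codon 43 in Ccl17, codon 50 in Ccl6 and codon 57 in Ccl9. Ccl24 had an additional pair of adjacent cysteine codons in its first exon, which is not shown.

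The members lay on 3 chromosomes. On chromosome 11, Ccl2 (chr11:82035571-82037453), Ccl7 (chr11:82045712-82047525) and Ccl12 (chr11:82101845-82103400) stood side by side on the plus strand, with 8258 bases between Ccl2 and Ccl7. Some 1422377 bases further on came Ccl5 (chr11:83525778-83530518), Ccl9 (chr11:83572919-83578636), Ccl6 (chr11:83587882-83593087) and Ccl3 (chr11:83647844-83649355) on the minus strand and Ccl4 (chr11:83662584-83664683) on the plus strand. Ccl3 and Ccl4 were 13228 bases apart and Ccl9 and Ccl6 9245 bases. Ccl17 (chr8:94810453-94812036) and Ccl24 (chr5:135569937-135573049) were on other chromosomes. No stretch of 50 bases was shared between the transcripts of any pair of members, so reads of that length could be told apart among them. In Ccl9 59 of 2996 such stretches (1.97%) also occurred in transcripts of genes outside the family. The spans of Ccl2 and Ccl6 lay wholly within annotated genes of the opposite strand, Gm17268 and E230016K23Rik. The strand setting of the counting was not given, and the effect of this overlap on their counts was not tested.

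Of the 10 members, 9 passed the filter of the test, a mean of at least 3 CPM (counts scaled to a common library size) in at least 1 group, which 11998 genes passed. Ccl17 did not pass. Ccl5 passed through the CD9+ libraries of day 14 alone, so a difference between that group and others was favoured by the filter itself. Levels below are CPM scaled with TMM factors, and a member was called where the quasi-likelihood test of edgeR gave a Benjamini-Hochberg adjusted p under 0.05 over all tested genes and the log2 fold change was 1 or more in size. In bulk samples fewer cells of a type and less RNA per cell cannot be told apart. Comparisons that involve the same group share its libraries. With 2 libraries a group, the libraries of a pair of groups can fail to overlap by chance, so non-overlap is only a description.

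Library totals ran from 9233952 to 19814119 counts. The CD9+ libraries of day 1 were the least alike, with a correlation of log2 CPM of 0.935 against 0.976 to 0.988 in the other groups. The sorted populations differed in the sums of their defining markers. The summed CPM of 5 neutrophil markers was 9434 to 12530 in neutrophils and 221 to 649 elsewhere. In F4/80- cells this sum went from 561 to 649 CPM on day 1 to 221 to 246 CPM on day 14. In neutrophils the means of Cxcr2 (1628 to 971 CPM) and Csf3r (3709 to 2379 CPM) were lower on day 14. Those of Ly6g (103 to 275.6 CPM), Mmp8 (3111 to 5165 CPM) and Retnlg (2242 to 3495 CPM) were higher. The summed CPM of 5 macrophage markers was 774 to 1533 in both macrophage sorts against 169 to 204 in F4/80- cells. Single macrophage markers moved apart in both macrophage sorts. In the CX3CR1+ sort the means of Mertk (19.8 to 1.62 CPM) and C1qa (51.7 to 6.87 CPM) were lower on day 14. Those of Csf1r (912 to 789 CPM), Cd68 (308 to 271 CPM) and Adgre1 (177 to 154 CPM) moved less. In the CD9+ sort the means of Csf1r (755.8 to 445.3 CPM) and Mertk (33.1 to 16.1 CPM) were lower on day 14. Those of Adgre1 (139.4 to 180.2 CPM) and C1qa (62.8 to 90.7 CPM) were higher, and that of Cd68 (250.8 to 233.2 CPM) moved less. The part of these shifts in the ligand levels was not tested. In neutrophils the macrophage markers went from 563 to 580 CPM on day 1 to 179 to 185 CPM on day 14. Markers of other cell types were present too. The CD9+ libraries of day 14 held 5801 to 9380 CPM of 4 eosinophil markers, against 469.6 to 549.8 CPM in the CD9+ libraries of day 1 and at most 113 CPM in every other group. F4/80- cells held 424 to 792 CPM of 4 basophil and mast cell markers, the CD9+ sort 44.9 to 144 CPM, and the others at most 5.31 CPM.

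The make-up of the family was similar in both macrophage populations on each day and differed from that of F4/80- cells and neutrophils on day 1. Per kilobase of exon, which allows levels to be compared between genes, Ccl2 was the leading ligand of both macrophage populations on day 1, with 32.0% ± 2.2 (SD, n = 2) of the sum over the 10 members in CD9+ macrophages and 31.7% ± 0.058 (SD, n = 2) in CX3CR1+ macrophages. Ccl3 led in F4/80- cells on day 1 (56.3% ± 0.20, SD, n = 2) and in neutrophils on day 1 (67.8% ± 6.2, SD, n = 2). On day 14 Ccl6 led in CD9+ macrophages (43.9% ± 2.7, SD, n = 2), CX3CR1+ macrophages (42.5% ± 1.1, SD, n = 2) and neutrophils (85.8% ± 1.4, SD, n = 2). On this scale only F4/80- cells kept the same leading ligand on both days, Ccl3 again making up 56.6% ± 0.17 (SD, n = 2). Without division by length, Ccl6 instead of Ccl2 came first in both macrophage groups of day 1, with a mean of 28.0% in CD9+ and 31.6% in CX3CR1+ macrophages, although Ccl9 came first in 1 library of each group. Ccl6 then led both macrophage populations on both days.

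The summed level of the family was described without a test. In 2 of the 4 populations both libraries of day 14 lay below both of day 1. In neutrophils it was 3098 and 5480 CPM per kilobase in the libraries of day 1 and 843 and 837 CPM per kilobase in those of day 14. In CD9+ macrophages it was 1425 and 1130 CPM per kilobase on day 1 and 567 and 637 CPM per kilobase on day 14. The libraries of the days did not overlap in either population. In CX3CR1+ macrophages the sums of day 1 (1015 and 1345) and day 14 (1151 and 962) CPM per kilobase overlapped, and so did those of F4/80- cells (1151 and 944 against 1132 and 1044). The eosinophil markers given above were higher in the CD9+ libraries of day 14, and their part in the lower sum was not tested.

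**Figure D1:**
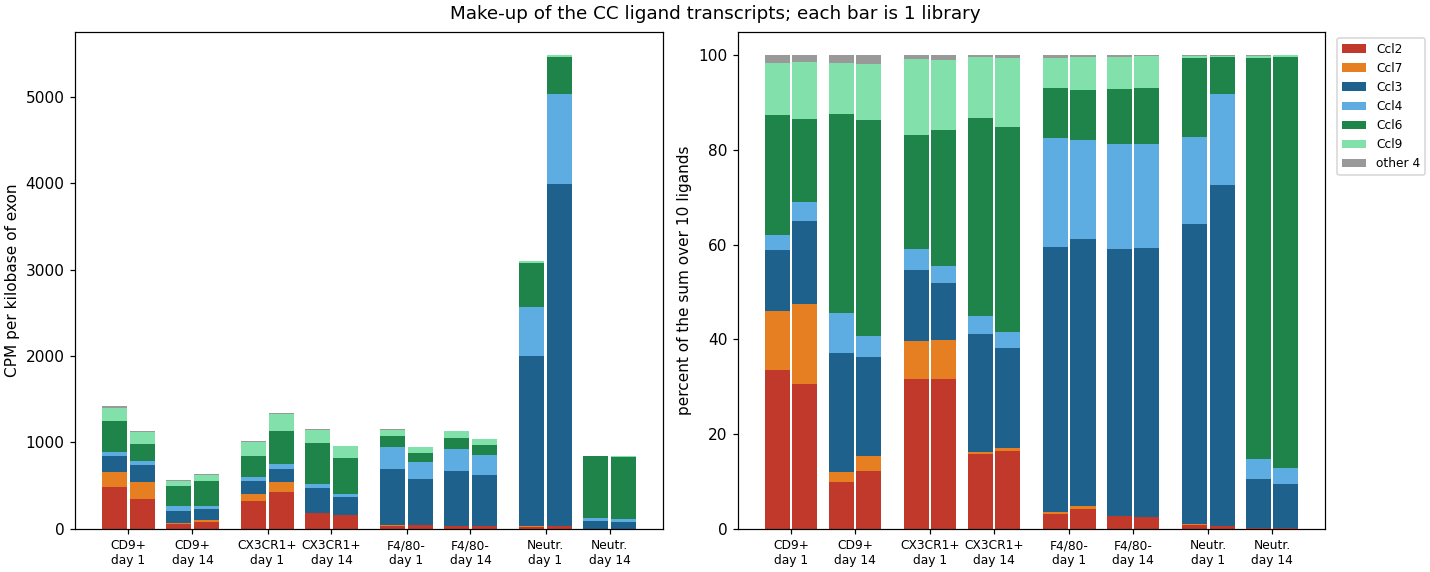
Sum of the 10 CC ligands in each library as CPM per kilobase of exon (left, stacked bars) and as percent of that sum (right), by population and day; "other 4" are Ccl5, Ccl12, Ccl17 and Ccl24. The neutrophil libraries of day 1 are the tallest at 3098 and 5480 CPM per kilobase, the F4/80- bars look alike on both days, and the share of Ccl6 in neutrophils grows to 85.8% on day 14.

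The change from day 1 to day 14 was then examined within each population. In CD9+ macrophages 4 of 9 tested members were called, 3 lower and 1 higher on day 14, where 8.23% of all tested genes were called. The higher member was Ccl5, whose call the filter favoured, as it passed through the CD9+ libraries of day 14 alone. Without the filter, or with edgeR's filterByExpr, the count was 3. In CX3CR1+ macrophages 3 of 9 were called, 2 lower and 1 higher, where 5.86% of genes were called. The higher member was again Ccl5, and the count was 2 under either of these alternatives. In F4/80- cells 1 of 9 was called and was lower, where 3.25% of genes were called in either direction and 2.24% were lower. In neutrophils 5 of 9 were called and all 5 were lower, where 14.1% of genes were called in either direction and 10.9% were lower. The median log2 change of the members above 3 counts was -1.10 in CD9+ macrophages, -0.34 in CX3CR1+ macrophages, 0.04 in F4/80- cells and -3.99 in neutrophils, while the medians of all tested genes lay between -0.016 and 0.031. The member called in all 4 populations was Ccl7. The count in CD9+ macrophages fell to 2 without replicate 1 of day 1 or without replicate 1 of day 14, and that in CX3CR1+ macrophages to 1 without replicate 2 of day 1.

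**Figure D2:**
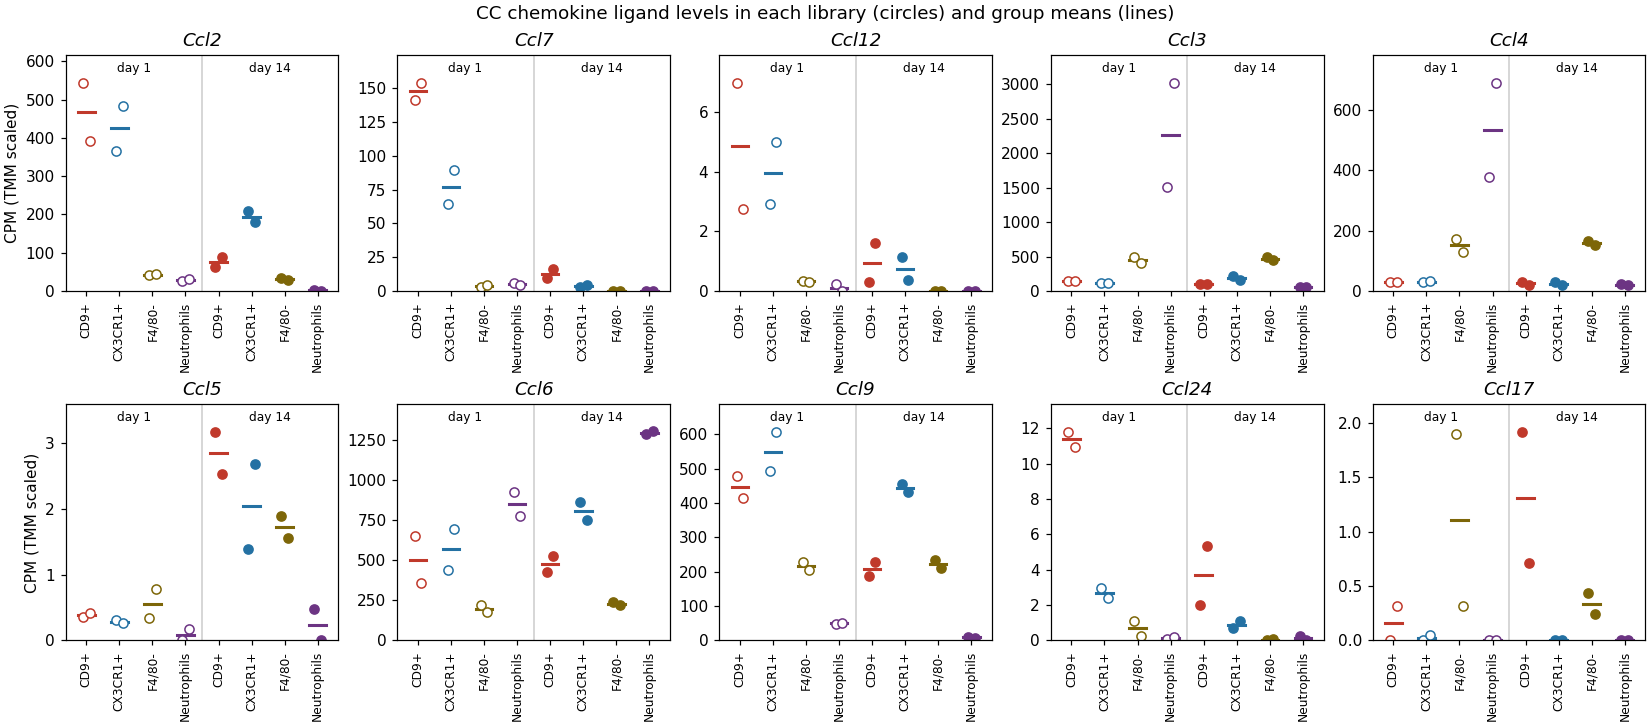
Levels of the 10 CC ligands in CPM (linear axes that start at 0), with a circle for each library, open for day 1 and filled for day 14, and a line at the mean of each group. The means of Ccl2, Ccl7 and Ccl12 are highest in both macrophage groups of day 1 and that of Ccl24 in CD9+ macrophages of day 1, those of Ccl3 and Ccl4 in the neutrophils of day 1, and that of Ccl6 in the neutrophils of day 14.

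Of the CCR2 ligands, Ccl2, the chief chemokine for inflammatory monocytes, was a macrophage transcript on day 1. It was counted at 543.9 and 391.9 CPM in CD9+ macrophages, 366 and 484 CPM in CX3CR1+ macrophages, 40.7 and 45.4 CPM in F4/80- cells and 26.9 and 31.8 CPM in neutrophils. On day 14 the values were 63.7 and 87.9 CPM in CD9+ macrophages, 208 and 180.4 CPM in CX3CR1+ macrophages, 34.3 and 29.5 CPM in F4/80- cells and 2.28 and 1.44 CPM in neutrophils. The macrophage libraries of day 1 overlapped each other and were above all others, and every population was lower on day 14 with no overlap of its libraries. Ccl2 fell in CD9+ macrophages (log2 fold change -2.63 ± 0.21, SE, adjusted p = 1.9e-06), in CX3CR1+ macrophages (-1.13 ± 0.20, adjusted p = 0.0014) and in neutrophils (-3.99 ± 0.30, adjusted p = 1.7e-07). In F4/80- cells the log2 change of -0.43 ± 0.20 did not pass (adjusted p = 0.25).

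The fall of Ccl2 differed in size between populations. The test of the difference itself gave a larger fall in CD9+ than in CX3CR1+ macrophages (interaction -1.498 ± 0.28 on the log2 scale, SE, adjusted p = 0.0084), and this was the member called of 9, where 2.28% of genes were called. On day 1 no difference between both macrophage populations was detected (log2 difference 0.14 ± 0.19, adjusted p = 0.68), and on day 14 CD9+ macrophages had less (-1.36 ± 0.20, adjusted p = 0.00011). The eosinophil markers of the CD9+ sort went from 469.6 to 549.8 CPM on day 1 to 5801 to 9380 CPM on day 14, against at most 75.8 CPM in CX3CR1+ macrophages, and their part in this difference was not tested. In neutrophils the fall exceeded the mean of the other 3 populations by 2.60 ± 0.33 on the log2 scale (interaction -2.60, adjusted p = 7.4e-05). F4/80- cells fell less than the mean of both macrophage populations (interaction 1.45 ± 0.25, adjusted p = 0.01), the member called of 9 where 0.85% of genes were called. The call of CD9+ against CX3CR1+ macrophages was lost without replicate 1 of CX3CR1+ day 1, of CD9+ day 14 or of CX3CR1+ day 14, and that of F4/80- cells without either F4/80- library of day 1 or without replicate 1 of day 14; the number of members called was then 0.

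Ccl7, which shares CCR2 with Ccl2 and lies next to it, had the steepest course in macrophages. It was at 141 and 154 CPM in CD9+ and at 64.4 and 89.6 CPM in CX3CR1+ macrophages on day 1, and at 9.57 and 16.4 CPM in CD9+ and at 2.69 and 4.35 CPM in CX3CR1+ macrophages on day 14. F4/80- cells had 3.21 and 4.52 CPM (day 1) and 0.29 and 0.081 CPM (day 14), the last being 4 counts and 1 count. Neutrophils had 6.28 and 4.72 CPM on day 1, from 84 and 54 counts, and 0 and 2 counts on day 14. The libraries of the days did not overlap in any population, and the CD9+ libraries were above the CX3CR1+ libraries on both days. Ccl7 fell in CD9+ macrophages (-3.51 ± 0.30, adjusted p = 4e-06), in CX3CR1+ macrophages (-4.45 ± 0.33, adjusted p = 8.6e-07) and in F4/80- cells (-4.28 ± 0.57, adjusted p = 4e-04). In neutrophils it was called (adjusted p = 2.9e-05), and the summed counts gave a ratio of 50.3 with an exact interval (95%, counting error only) of 13.7 to 419. The difference between the falls of CD9+ and CX3CR1+ macrophages did not pass (0.94 ± 0.43, adjusted p = 0.29).

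Relative to Ccl2, Ccl7 was lower on day 14. Per 100 counts of Ccl2, CX3CR1+ macrophages had 17.6 and 18.5 counts of Ccl7 on day 1, against 1.29 and 2.41 on day 14. CD9+ macrophages had 26.0 and 39.3 counts on day 1, against 15.02 and 18.6 on day 14, and F4/80- cells 7.90 and 9.96 counts, against 0.846 and 0.276. The ratio was lower on day 14 in every library of these 3 populations, and on day 14 CD9+ macrophages kept the highest ratio among them. This ratio was described without a test.

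**Figure D3:**
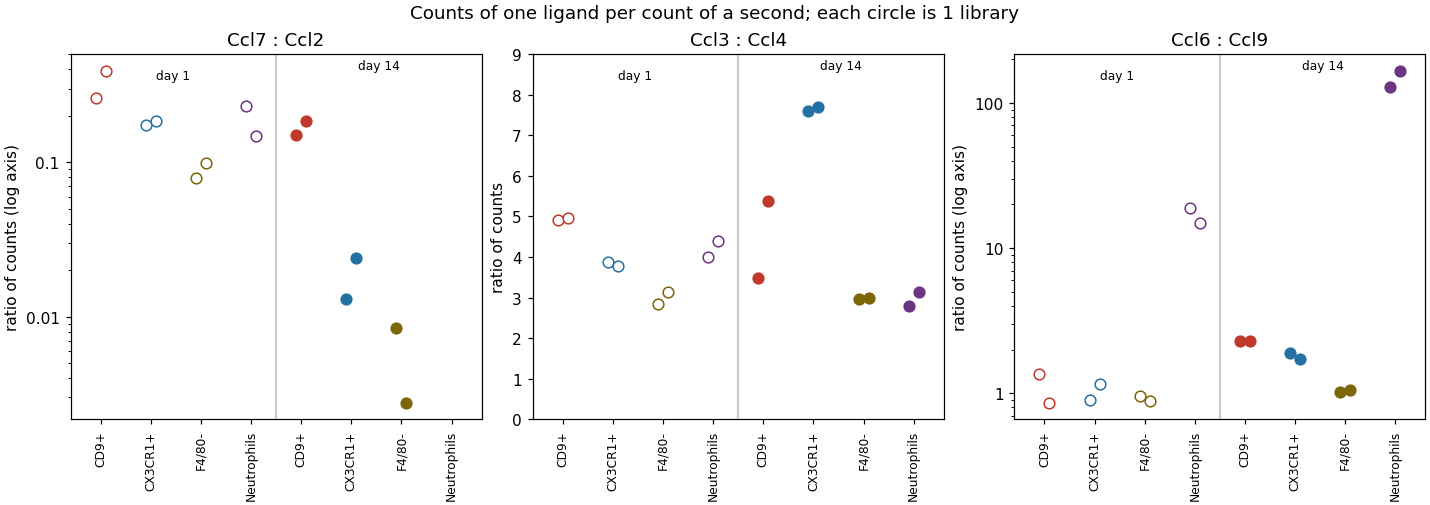
Counts of Ccl7 per count of Ccl2 (log axis), of Ccl3 per count of Ccl4 (linear axis) and of Ccl6 per count of Ccl9 (log axis), with a circle for each library, open for day 1 and filled for day 14; Ccl7 to Ccl2 is not drawn for neutrophils of day 14, where Ccl7 had 0 and 2 counts. The Ccl6 to Ccl9 ratio is near 1 to 2.29 outside neutrophils and reaches 129 and 167 in the neutrophils of day 14.

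Ccl12, a mouse ligand of CCR2, followed the same outline at a much lower level. It had 6.98 and 2.74 CPM in CD9+ and 2.93 and 5 CPM in CX3CR1+ macrophages on day 1, from 26 to 99 counts a library. On day 14 the levels were 0.287 and 1.62 CPM in CD9+ and 1.13 and 0.37 CPM in CX3CR1+ macrophages, from 3 to 16 counts. F4/80- cells had 7 counts in each library of day 1 and 0 on day 14, and neutrophils had 3 and 0 counts on day 1 and 0 on day 14. The macrophage libraries were all lower on day 14, yet neither log2 change passed, at -2.37 ± 0.86 in CD9+ (adjusted p = 0.075) and -2.38 ± 0.86 in CX3CR1+ macrophages (adjusted p = 0.094). The change in CD9+ macrophages passed without replicate 2 of day 1 (-2.87, adjusted p = 0.035). In F4/80- cells, against a floor of 3 counts a library, Ccl12 was at least 1.43-fold lower on day 14.

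Ccl3 and Ccl4, chemokines that activated neutrophils and macrophages release, had a different pattern, being highest in neutrophils on day 1. Ccl3 was at 1505 and 3027 CPM in neutrophils, 495 and 408 CPM in F4/80- cells, 142 and 152 CPM in CD9+ and 116 and 123 CPM in CX3CR1+ macrophages on day 1. By day 14 the levels were 65.9 and 59.3 CPM in neutrophils, 489.8 and 453.6 CPM in F4/80- cells, 109.5 and 102 CPM in CD9+ and 220.2 and 156 CPM in CX3CR1+ macrophages. The neutrophil libraries went from the highest of all on day 1 to the lowest on day 14, while the F4/80- libraries of both days overlapped. Replicates of neutrophils on day 1 differed by more than in any other group of Ccl3, and both were far above the next group.

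Ccl4 was at 377 and 689.7 CPM in neutrophils, 174 and 129.7 CPM in F4/80- cells, 29.0 and 30.5 CPM in CD9+ and 30.0 and 32.6 CPM in CX3CR1+ macrophages on day 1. By day 14 the levels were 23.7 and 18.9 CPM in neutrophils, 165 and 151.9 CPM in F4/80- cells, 31.4 and 18.9 CPM in CD9+ and 29.0 and 20.4 CPM in CX3CR1+ macrophages. On day 1 neutrophils came first and F4/80- cells next, as for Ccl3, and the macrophage libraries overlapped. On day 14 the libraries of neutrophils and both macrophage populations overlapped.

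Both genes fell in neutrophils, Ccl3 by 5.18 ± 0.29 on the log2 scale (log2 fold change -5.18, 36.2-fold, adjusted p = 9.9e-09) and Ccl4 by 4.65 ± 0.31 (log2 fold change -4.65, 25.1-fold, adjusted p = 5.2e-08). In the other populations neither passed the test. The log2 changes of Ccl3 were -0.48 ± 0.24 in CD9+ macrophages (adjusted p = 0.19), 0.66 ± 0.24 in CX3CR1+ macrophages (adjusted p = 0.092) and 0.06 ± 0.24 in F4/80- cells (adjusted p = 0.93). Those of Ccl4 were -0.24 ± 0.28, -0.34 ± 0.28 and 0.06 ± 0.26 in the same order. The change in neutrophils differed from the mean change of the other 3 populations for Ccl3 (interaction -5.26 ± 0.31, adjusted p = 5.2e-08) and for Ccl4 (-4.48 ± 0.33, adjusted p = 6.6e-07). In that test 4 of 9 members were called, Ccl2, Ccl3, Ccl4 and Ccl9, all with the larger fall in neutrophils, where 8.48% of genes were called in either direction and 7.14% in this direction.

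Within each day Ccl3 and Ccl4 also differed between populations. On day 1 F4/80- cells had more than CD9+ macrophages (log2 difference of CD9+ to F4/80- cells -1.62 ± 0.24 for Ccl3 and -2.35 ± 0.28 for Ccl4, adjusted p = 0.00018 and 2e-05), and on day 14 they still did (-2.16 ± 0.25 and -2.65 ± 0.28, adjusted p = 2.3e-05 and 1e-05). On day 14 F4/80- cells also had more than neutrophils (2.91 ± 0.26 for Ccl3 and 2.90 ± 0.29 for Ccl4, adjusted p = 1.4e-07 and 4.6e-07), the opposite of day 1 (-2.33 ± 0.25 and -1.81 ± 0.26, adjusted p = 9.2e-07 and 2.2e-05). The F4/80- libraries, which held the most of both genes on day 14, were also those with 424 to 792 CPM of basophil and mast cell markers, and the part of these cells in the levels was not tested. The ratio of Ccl3 to Ccl4 counts lay between 2.79 and 5.39 in 14 libraries and was 7.59 and 7.69 in the CX3CR1+ macrophages of day 14.

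**Figure D4:**
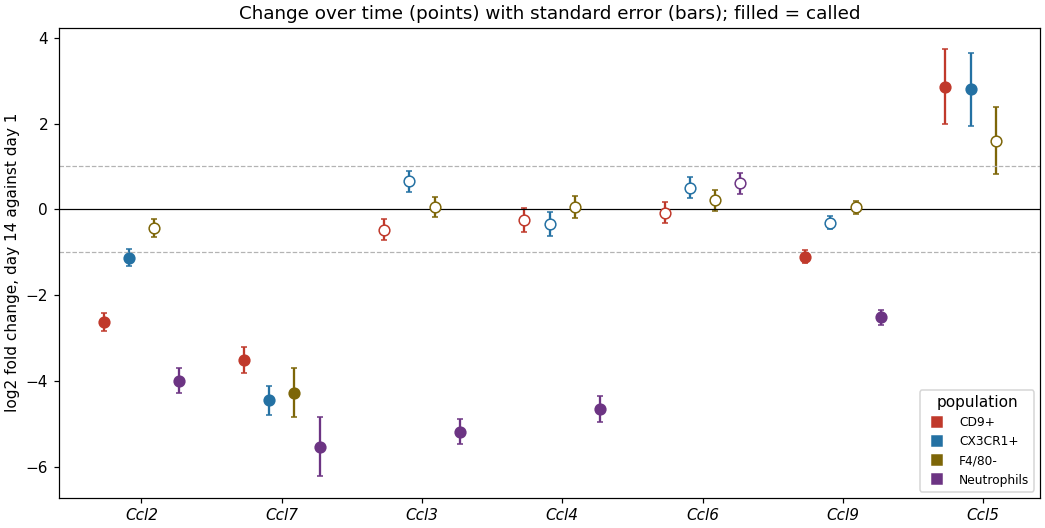
Log2 fold change from day 1 to day 14 (vertical axis) of 7 CC ligands in the 4 populations (colours), with standard errors from the edgeR fit as bars and filled circles where a member was called; dashed lines mark an absolute change of 1, and Ccl5 in neutrophils is not drawn because it had 0 to 4 counts. Ccl7 is filled in all populations, and Ccl3 and Ccl4 are filled in neutrophils, at -5.18 and -4.65.

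Ccl5, a ligand of CCR1 and CCR3 best known from T cells and NK cells, was close to the limit of detection. CD9+ macrophages had 0.352 and 0.421 CPM on day 1, from 5 and 4 counts, and 3.16 and 2.53 CPM on day 14, from 33 and 25 counts. CX3CR1+ macrophages went from 0.306 and 0.26 CPM to 1.39 and 2.68 CPM, and F4/80- cells from 0.34 and 0.776 CPM to 1.89 and 1.55 CPM. Neutrophils had 0 and 2 counts in the day 1 libraries and 4 and 0 in the others. Every library of day 14 was above every library of day 1 in the first 3 populations. The increase was called in CD9+ (2.86 ± 0.87, adjusted p = 0.035) and CX3CR1+ macrophages (2.80 ± 0.84, adjusted p = 0.041), and the log2 change in F4/80- cells was 1.60 ± 0.78 (adjusted p = 0.28). Neither call held with all genes of the table tested (adjusted p = 0.069 and 0.09), with the filter of edgeR's filterByExpr (0.061 and 0.08), or when replicates were left out, as adjusted p then ran from 0.065 to 0.078 and from 0.074 to 0.27 in the fits that lost them. With the replicate number as a block, adjusted p was 0.056 in CX3CR1+ macrophages.

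Of the NK cell markers, Nkg7 moved with Ccl5 in part and Klrb1c did not. Of 4 listed NK markers 2 were in the table, and their summed CPM in the CD9+ sort went from 4.53 to 9.51 (day 1) to 21.6 to 24.2 (day 14), and in F4/80- cells from 11.7 to 18.8 to 24.6 to 30.7. These sums were mostly Nkg7, whose mean went from 6.21 to 22.7 CPM in the CD9+ sort and from 15.2 to 27.6 CPM in F4/80- cells. The mean of Klrb1c went the other way, from 0.81 to 0.197 CPM in the CD9+ sort and from 0.024 to 0 CPM in F4/80- cells. In CX3CR1+ macrophages the sum stayed at or under 0.925 CPM on both days. The summed T cell markers, 3 of 4 in the table, were at most 0.74 CPM in both macrophage populations on either day. The part of such cells in the Ccl5 counts of the CD9+ sort was not tested.

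Ccl6 and Ccl9, ligands of CCR1 that lie side by side, were abundant in nearly all groups but diverged in neutrophils. Ccl6 was at 649 and 355.5 CPM in CD9+ macrophages, 442 and 696 CPM in CX3CR1+ macrophages, 218.5 and 179 CPM in F4/80- cells and 924.5 and 775 CPM in neutrophils on day 1. By day 14 the levels were 428 and 523.5 CPM in CD9+ macrophages, 862.5 and 748 CPM in CX3CR1+ macrophages, 238 and 222 CPM in F4/80- cells and 1283 and 1305 CPM in neutrophils. The neutrophil libraries of day 14 were the highest and the F4/80- libraries of both days the lowest, and replicates within the macrophage groups of day 1 differed by more than the days did. Ccl6 was the abundant member with no call in any population over time. Its log2 changes were -0.08 ± 0.24 in CD9+ macrophages (adjusted p = 0.86), 0.50 ± 0.24 in CX3CR1+ macrophages (0.21), 0.21 ± 0.24 in F4/80- cells (0.71) and 0.61 ± 0.24 in neutrophils (0.078). These standard errors leave room for changes near 1 in CX3CR1+ macrophages and neutrophils.

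Ccl9 was at 477 and 414 CPM in CD9+ macrophages, 492 and 606 CPM in CX3CR1+ macrophages, 227 and 204 CPM in F4/80- cells and 49.3 and 52.1 CPM in neutrophils on day 1. By day 14 the levels were 187 and 229 CPM in CD9+ macrophages, 454 and 432.5 CPM in CX3CR1+ macrophages, 233 and 212 CPM in F4/80- cells and 9.96 and 7.80 CPM in neutrophils. Neutrophils were the lowest on both days, and the days did not overlap in CD9+ macrophages, CX3CR1+ macrophages and neutrophils. Ccl9 fell in neutrophils (-2.52 ± 0.17, adjusted p = 8.2e-08) and in CD9+ macrophages (-1.10 ± 0.15, adjusted p = 0.00018). The value in CD9+ macrophages lay near the threshold on the fold change. It was no longer called under scaling by library size (-0.91), without replicate 1 of day 1 (-0.99) or without replicate 1 of day 14 (-0.95). The eosinophil markers of the CD9+ sort went from 469.6 to 549.8 CPM on day 1 to 5801 to 9380 CPM on day 14. Their part in this fall was not tested. The log2 changes in CX3CR1+ macrophages (-0.31 ± 0.14, adjusted p = 0.19) and F4/80- cells (0.04 ± 0.14, adjusted p = 0.91) did not pass. The fall in neutrophils exceeded the mean of the other populations (interaction -2.06 ± 0.19, adjusted p = 5e-06).

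The ratio of Ccl6 to Ccl9 counts made this divergence plain. It lay between 0.858 and 1.36 in the macrophages and F4/80- cells of day 1 and between 1.02 and 2.29 in those of day 14. In neutrophils the day 1 ratios of 18.8 and 14.9 gave way to 129 and 167 on day 14. The neutrophil libraries lay above all others on both days. Ccl2, Ccl7 and Ccl9, which were lower in neutrophils than in both macrophage populations on day 1, fell in the neutrophil sort together with its macrophage markers, which went from 563 to 580 CPM to 179 to 185 CPM, and the part of macrophage RNA in these levels was not tested. Ccl12 and Ccl24 were also lower in neutrophils than in CD9+ macrophages on day 1, by 5.26 ± 1.10 and 6.44 ± 0.93 on the log2 scale (adjusted p = 0.00082 and 2e-05). The summed counts gave ratios of 43.6 (exact interval 14.6 to 214.5) and 94.6 (32.0 to 461.6). Both genes passed the filter through macrophage groups alone, so the filter favoured these differences. At 0 to 3 counts a library their changes in neutrophils were not called (adjusted p = 0.37 and 0.97). Ccl3 and Ccl4 were higher in neutrophils than in the macrophages of day 1.

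Ccl24, a ligand of CCR3 on eosinophils that alternatively activated macrophages make, had its highest levels in the CD9+ sort of day 1. It was at 11.8 and 10.95 CPM in CD9+ and at 2.98 and 2.40 CPM in CX3CR1+ macrophages on day 1, and at 2.01 and 5.36 CPM in CD9+ and at 0.695 and 1.11 CPM in CX3CR1+ macrophages on day 14. F4/80- cells had 23 and 6 counts early and 0 and 1 late, and neutrophils had 0 to 2 counts a library. The CD9+ libraries of day 1 were above all others, and on each day the CD9+ libraries were above the CX3CR1+ libraries. On day 1 the difference was called (2.08 ± 0.64, adjusted p = 0.04), the only call among 9 members in this comparison, where 8.23% of genes were called. On day 14 a log2 difference of similar size did not pass (2.02 ± 0.73, adjusted p = 0.053). Nor did the log2 changes over time, at -1.63 ± 0.64 in CD9+ (adjusted p = 0.095) and -1.57 ± 0.72 in CX3CR1+ macrophages (adjusted p = 0.18). The call of day 1 was lost under scaling by library size (adjusted p = 0.053), without replicate 1 of CD9+ day 1, without either CX3CR1+ library of day 1, without either CX3CR1+ library of day 14 and without either F4/80- library of day 14, and the count was then 0. The eosinophil markers of the CD9+ sort, at 469.6 to 549.8 CPM on day 1 and 5801 to 9380 CPM on day 14, were at most 75.8 CPM in CX3CR1+ macrophages, and their part in these levels was not tested.

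Ccl17, which attracts T cells through CCR4 and is a product of dendritic cells, was the member that did not pass the filter of the test. F4/80- cells had 39 and 7 counts (day 1) and 6 and 3 counts (day 14), and the CD9+ sort 0 and 3 counts (day 1) and 20 and 7 counts (day 14). CX3CR1+ macrophages had 0 and 1 count on day 1 and 0 on day 14, and neutrophils had 0 in all 4 libraries. The F4/80- replicates of day 1 differed from each other more than the groups did. In the CD9+ sort the summed counts of the days gave a ratio of 10.5 with an exact interval of 3.22 to 54.0, which covers counting error only. Tested without the filter on low counts, the log2 change there was 3.16 ± 1.52 (adjusted p = 0.22, edgeR) and was not called. That fit called Ccl17 in 4 comparisons between populations, higher in F4/80- cells than in CX3CR1+ macrophages (adjusted p = 0.038) and neutrophils (0.014) on day 1, and higher in the CD9+ sort than in CX3CR1+ macrophages (0.039) and neutrophils (0.019) on day 14. Against a floor of 3 counts a library, Ccl17 was at least 4.87-fold higher in the CD9+ sort than in CX3CR1+ macrophages on day 14. The sum of 4 dendritic cell markers went from 7.33 to 13.4 CPM on day 1 to 20.9 to 23.7 CPM on day 14 in the CD9+ sort and from 11.7 to 13.8 CPM to 50.4 to 56.5 CPM in CX3CR1+ macrophages. In F4/80- cells the sum was 34.5 to 38.2 CPM and 55.2 to 58.1 CPM on these days. The rise in the CD9+ sort was mainly Cd209a (mean 1.97 to 13.1 CPM). Flt3 (5.64 to 5.75 CPM), Zbtb46 (2.02 to 2.85 CPM) and Xcr1 (0.72 to 0.643 CPM) changed little there. In F4/80- cells Xcr1 was lower on day 14 (0.945 to 0.276 CPM). The part of dendritic cells in the Ccl17 counts was not tested.

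Between populations of the same day, most tested members differed between macrophages and F4/80- cells. On day 1 8 of 9 members were called between CD9+ macrophages and F4/80- cells, 6 higher in macrophages, where 15.4% of genes were called, and 8 of 9 between CX3CR1+ macrophages and F4/80- cells, also with 6 higher in macrophages, where 21.1% of genes were called. On day 14 these counts were 7 of 9 (7.7% of genes) and 7 of 9 (21.5% of genes), with 5 higher in macrophages in each. The exceptions in direction were Ccl3 and Ccl4 in all 4 comparisons. Ccl12 and Ccl24, which passed the filter through macrophage groups alone, were among those called higher in macrophages in all 4 comparisons. With the replicate number as a block, the count of CD9+ macrophages against F4/80- cells on day 14 was 6 in place of 7, since the call of Ccl12 was lost. It fell to 4 without replicate 2 of CD9+ day 14.

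The largest differences in these comparisons were those of Ccl7, at 5.25 ± 0.32 on day 1 and 6.01 ± 0.52 on day 14 between CD9+ macrophages and F4/80- cells (adjusted p = 1.1e-07 and 1.3e-06), apart from low counts of Ccl12 and Ccl24. Ccl2 differed by 3.44 ± 0.21 on day 1 and by 1.25 ± 0.21 on day 14 between the same populations (adjusted p = 1.1e-07 and 0.00064). Ccl9 was higher in CD9+ macrophages on day 1 (1.05 ± 0.15, adjusted p = 9.1e-05), and on day 14 its libraries overlapped those of F4/80- cells (-0.10 ± 0.15, adjusted p = 0.76).

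Against neutrophils the counts were 7 of 9 for CD9+ macrophages on day 1 (49.5% of genes) and on day 14 (49.5%), 7 of 9 for CX3CR1+ macrophages on day 1 (51% of genes) and on day 14 (48%), and 5 of 9 on day 1 (49%) and 6 of 9 on day 14 (48.7%) for F4/80- cells, so neutrophils differed from the other populations in a large part of all genes. The count of CX3CR1+ macrophages on day 14 fell to 4 without replicate 2 of the neutrophils of that day. Ccl12 and Ccl24 were among the members called for both macrophage populations against neutrophils on both days. The filter favoured these calls and that of Ccl5 for CD9+ macrophages on day 14. Between both macrophage populations 3 of 9 were called on day 14, where 14.2% of genes were called. Besides Ccl2, Ccl7 was higher (1.88 ± 0.34, adjusted p = 0.00059) and Ccl9 lower in CD9+ macrophages (-1.09 ± 0.15, adjusted p = 4.8e-05). The value of Ccl9 lay near the fold threshold, and its call was lost without replicate 1 of CD9+ day 14 (-0.96). The CD9+ sort of day 14 held 5801 to 9380 CPM of eosinophil markers against at most 75.8 CPM in CX3CR1+ macrophages. Their part in these differences was not tested. Over all 4 populations, the change with time differed for 4 of 9 members, Ccl2, Ccl3, Ccl4 and Ccl9, at an adjusted p under 0.05, where 14.7% of genes passed.

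Other genes of the pathway gave a frame for the members. The lists held 10 other CC ligands, of which 3 were in the table and 2 were tested, and 14 receptors, of which 9 were in the table and 5 were tested. No tested ligand of the list was called over time. No tested receptor was called higher on day 14 in any population. Ccl1, Ccl8, Ccl11, Ccl19, Ccl20, Ccl21a, Ccl28, Ccr4, Ccr6, Ccr8, Ackr1 and Ackr2 were not analysed here.

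Ccr1, the receptor of Ccl6 and Ccl9, was most abundant in neutrophils at a mean of 1257 CPM on day 1 and 651 CPM on day 14. It fell in CD9+ macrophages (-1.23 ± 0.14, adjusted p = 5.4e-05), CX3CR1+ macrophages (-1.46 ± 0.14, adjusted p = 1e-05) and F4/80- cells (-1.04 ± 0.14, adjusted p = 0.00042), and was below the fold threshold in neutrophils (-0.95 ± 0.14, adjusted p = 0.00013). Ccr2, the receptor of Ccl2, Ccl7 and Ccl12, fell in CD9+ macrophages (-1.09 ± 0.22, adjusted p = 0.0039) and in neutrophils (-2.35 ± 0.25, adjusted p = 7.3e-06). In CX3CR1+ macrophages it was at a mean of 1442 CPM on day 1 and 1474 CPM on day 14 (0.03 ± 0.22, adjusted p = 0.95), while their Ccl2 and Ccl7 fell.

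Across the 16 libraries the log2 CPM of Ccl3 and Ccl4 correlated most among the members (Pearson's r = 0.96), followed by Ccl2 with Ccl9 (0.93) and Ccl7 with Ccl12 (0.90). These values describe 16 points that fall into 8 groups and share the contrast of macrophages with neutrophils. Among all other tested genes, those with the pattern most like Ccl2 were Fn1 (0.98), Eps8 (0.98) and Gm6377 (0.98), and those most like Ccl7 were Sdc4 (0.98), Itgb5 (0.96) and Mmp19 (0.96). Ccl9 was most like F13a1 (0.99), Eef1a1 (0.99) and Rassf4 (0.98), and Ccl6 most like Lst1 (0.94), Gm15448 (0.94) and 1810043G02Rik (0.94). Ccl3 was most like Gpc3 (0.94), N4bp2 (0.91) and Pdcd1lg2 (0.89), and those most like Ccl4 included N4bp2 (0.91) and Jak2 (0.90). The scarce members Ccl5 (Zfp275, Ubqln2 and Klrb1f at 0.90), Ccl12 (2610001J05Rik, Clcn5 and Fabp7 at 0.92 to 0.93) and Ccl24 (Fcgr2b, Epb41l1 and Map4k3 at 0.93) rested on few counts.

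Promoters were available for 5 of the 10 members from RefSeq (GRCm38.p6), namely Ccl3, Ccl6, Ccl9, Ccl12 and Ccl17, and the 250 bases before each gene's start were searched on both strands. The letters GGNNTTTCC, a form of the kappaB motif, TGANTCA, the AP-1 motif, and TTCNNNNGAA, the STAT6 motif, were present in 4.93%, 6.75% and 5.85% of 32851 promoters. The promoter of Ccl9 held a kappaB match 35 bases before the start and an AP-1 match 53 bases before it, that of Ccl17 held a STAT6 match 154 bases before it, and the windows of Ccl3, Ccl6 and Ccl12 held none of these letters.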

How the data were processed

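Sorted myeloid cells were sequenced in paired ends with the SMART-Seq Stranded kit. According to the methods and the submitters' processing notes, the authors trimmed the reads, aligned them to mm10 with STAR, counted reads in exons of Gencode and deposited the counts per gene without normalization; the strand setting of the counting is not given in the sources used here. The deposited table holds 20200 genes, each with at least 17 counts over all libraries. No per-sample column was left unmapped.

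From these counts, genes with a group mean of at least 3 CPM in at least 1 of 8 groups (library-size CPM) were kept, 11998 in all, TMM factors were computed, and edgeR 4.0.16 (glmQLFit, glmQLFTest, R 4.3.3) was fitted to all 16 libraries with a mean for each group. Members were called at an adjusted p under 0.05 over all tested genes and a log2 fold change of 1 or more in size, and interactions were contrasts of the same fit. Standard errors were taken from the fitted change and its F statistic. DESeq2 1.42.0, other scalings, filters, thresholds, a replicate block and leaving out each library were tried. The fit was tested on simulated data. Exon lengths came from Gencode M21 of GRCm38, as unions of exons. Counting floors of 3 counts a library and 95% exact (Clopper-Pearson) intervals of ratios cover counting error only, since reads without molecular identifiers are not independent molecules. Depth ranged from 9233952 to 19814119 counts.

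Members and gene lists were chosen with earlier results of these data known. Named genes were all 10 members, listed receptors and ligands called in at least 2 of the 4 comparisons over time or not in the table, and the 3 genes most correlated with each tested member; some of these genes and 1 coding window are not reported here. Figures used matplotlib 3.10.9.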

Additional observations from a re-analysis of the deposited data

Results flagged for a closer look

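Each value is a test of a difference in the change from day 1 to day 14 (log2 scale, edgeR), which was the reason for the flag. Ccl2 fell more in CD9+ than in CX3CR1+ macrophages (interaction -1.498, adjusted p = 0.0084), with both CD9+ libraries of day 14 below both CX3CR1+ libraries of that day. Over the same days the summed eosinophil markers went from 469.6 to 549.8 CPM to 5801 to 9380 CPM in the CD9+ sort and were at most 75.8 CPM in CX3CR1+ macrophages, and their part was not tested. Ccl2 fell less in F4/80- cells than in the mean of both macrophage populations (1.45, adjusted p = 0.01). Neutrophils fell more than the mean of the other 3 populations for Ccl2 (-2.60, adjusted p = 7.4e-05), Ccl3 (-5.26, adjusted p = 5.2e-08), Ccl4 (-4.48, adjusted p = 6.6e-07) and Ccl9 (-2.06, adjusted p = 5e-06). For these 4 members both neutrophil libraries of day 14 were below both of day 1. The summed macrophage markers of the neutrophil sort went from 563 to 580 CPM to 179 to 185 CPM over the same days, and their part was not tested.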

How the results depend on the processing

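Values of single members under the alternatives were tallied for the changes over time and for the called differences between populations. Of these, 1114 kept their direction and their side of the threshold, 63 lost the call and 1 gained it. The remaining 12 turned in sign or came to 0, none of them a called value. For left-out libraries the tally covered only those of the compared groups. Interactions, and calls that moved without a library of another group, were not in it. Under DESeq2 the number of members whose change differed between CD9+ and CX3CR1+ macrophages was 2 in place of 1. Without a threshold on the fold change, 2 members in place of 1 differed between both macrophage populations on day 1 and 5 in place of 3 on day 14. With scaling by library size only, 0 members differed between them on day 1 and the change of Ccl6 in CD9+ macrophages was 0.088; this scaling moved the median change of all genes in CD9+ macrophages to 0.196. A filter on CPM already scaled with TMM factors, added after seeing the data, left Ccl5 untested. The other counts of members stayed within 1.5 times under RLE scaling, no filter and filterByExpr.

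Leaving out each library in turn gave 2 to 4 members over time in CD9+ and 1 to 4 in CX3CR1+ macrophages, 0 to 1 between both on day 1, 4 to 7 between CD9+ macrophages and F4/80- cells and 4 to 7 between CX3CR1+ macrophages and neutrophils on day 14, 0 to 2 for the difference in change between both macrophage populations and 0 to 1 for that of F4/80- cells. The lone library of a group was assumed to vary like the other groups. In CD9+ macrophages the change ran from -0.64 to 0.08 for Ccl4 and from -0.44 to 0.42 for Ccl6. In F4/80- cells it ran from -0.058 to 0.217 for Ccl3, from -0.12 to 0.30 for Ccl4 and from -0.02 to 0.13 for Ccl9. In neutrophils it ran from -3.35 to 4.71 for Ccl5, from -4.70 to 0 for Ccl12 and from -3.88 to 0.93 for Ccl24, all at 0 to 4 counts a library. The CD9+ libraries of day 1 were the least alike: without replicate 2, Ccl2 (-2.84), Ccl7 (-3.44) and Ccl9 (-1.19) were still called in CD9+ macrophages, and without replicate 1 Ccl9 (-0.99) was not. The cause of these shifts was not tested.

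Populations of a day probably shared pools of mice, but the sources do not say whether the replicate number marks the pool. The deviations of same-numbered libraries of a day correlated at 0.013 to 0.144, all above 0 and over 0.1 in 3 of 12 pairs. With a replicate block within each day, 20 of 20 counts of members stayed within 1.5 times, and calls of Ccl5 over time in CX3CR1+ macrophages (2.79), of Ccl24 between F4/80- cells and neutrophils on day 1 (2.35) and of Ccl12 between CD9+ macrophages and F4/80- cells on day 14 (6.64) were lost.

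With 2 pools a group, p-values rest on a spread shared across all groups. Ccl5, Ccl12, Ccl17 and Ccl24 were limited by depth.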
